A study of Sus scrofa with 12 samples.

Results

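The genes described here belong to the unfolded protein response and the integrated stress response. They are 39 listed symbols that cover chaperones and folding enzymes of the endoplasmic reticulum (ER), the machinery of ER-associated degradation, the stress sensors and kinases, and the ATF4 and CHOP branch. A listed gene was taken where its symbol named a row of the deposited count table of 31908 genes. This gave 36 genes, and all 36 were among the 13216 genes that passed a filter on low counts. DNAJB11, SDF2L1 and ERN1 had no row under their symbols. DNAJB11 and ERN1 were found by gene identifier and are described apart from the 36, and SDF2L1 was not analysed here.

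The cells were primary porcine aortic valve interstitial cells (paVICs), the fibroblast-like cells of the aortic valve leaflet, from wild-type pigs. They were treated for 24 h in low-serum medium in 4 groups of 3 RNA-seq libraries. Vehicle cells received 0.6% DMSO and 0.1% ethanol. LPC cells received 10 μM lysophosphatidylcholine, a lipid of oxidized lipoproteins that was dissolved in ethanol, together with the DMSO vehicle. Dantrolene cells received 60 μM dantrolene, a blocker of the ryanodine receptor calcium channel of the ER that was dissolved in DMSO, together with the ethanol vehicle. LPC + dantrolene cells received both agents. All 4 groups share the solvents, a freeze and thaw, and passage on culture plastic. Each library number marks 1 isolation, for which the valves of several hearts were pooled, so that a replicate is a pool of animals. Sex and age of the pigs were not given in the labels.

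Unfolded protein in the ER lumen is sensed by IRE1 (gene ERN1), PERK (gene EIF2AK3) and ATF6. IRE1 splices the XBP1 transcript, ATF6 is cleaved to a transcription factor, and PERK phosphorylates eIF2α, which lowers protein synthesis and favours translation of ATF4. Other eIF2α kinases, such as GCN2 (gene EIF2AK4), feed the same ATF4 programme from amino acid shortage, and that convergence is called the integrated stress response. The ER is also the main calcium store of the cell, and several of its chaperones bind calcium. Splicing of XBP1, cleavage of ATF6 and phosphorylation of eIF2α are not seen in gene-level counts, so the values below are transcript levels alone.

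Library totals ran from 16489684 to 24105935 counts, and 3 counts corresponded to 0.114 to 0.186 CPM, the count scaled by the size of its library. The 36 genes took 0.860% to 1.09% of the counts of a library. All 11 fibroblast and myofibroblast markers were detected, with a summed level of 58773 to 111345 CPM. The 7 endothelial markers summed to 96.8 to 165 CPM and the 6 leukocyte markers to 12.4 to 28.5 CPM, with PTPRC and CD3E at 0 in every library. Cardiomyocyte markers summed to at most 1.03 CPM, with TNNT2 at 0. Within these lists LUM, a matrix proteoglycan, rose in all 3 treatments (2.54-, 3.00- and 2.56-fold, edgeR adjusted p = 0.00351, 0.000608 and 0.0042), POSTN rose with LPC (3.03-fold, adjusted p = 0.00188) and endothelial CDH5 fell with dantrolene (0.435-fold, adjusted p = 0.0111). No other marker passed against vehicle, and the part of these shifts in the values below was not tested. The LPC + dantrolene library of isolation 2 stood apart from the rest, with a median correlation of log2 CPM to the other libraries of 0.921 against 0.937 to 0.966 for the other 11. In bulk RNA, a shift in the kinds of cells and a shift in RNA per cell cannot be told apart.

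LPC alone was compared to vehicle to ask whether the lipid induces these stress genes. ERO1A, the oxidase that renews disulfide-forming capacity in the ER, was the only one of the 36 genes that passed the test, at 2.52-fold higher. It rose with a log2 fold change of 1.33 ± 0.36 (SE; edgeR's quasi-likelihood test, adjusted p = 0.00756). That is 2.78% of the genes, beside 8.69% called among all genes tested (8.54% higher and 0.144% lower). No member fell past the threshold. At an unadjusted p under 0.05 there were 5 genes, namely ERO1A, CEBPG, ATF6 and HSP90B1 on the higher side and SYVN1 on the lower side. Among all 13216 genes tested, 2099 were under that level.

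Neither dantrolene alone nor the combination brought any of the 36 genes past the threshold against vehicle by edgeR's quasi-likelihood test. The background was 8.8% of all genes for dantrolene (7.54% higher and 1.26% lower) and 7.14% for LPC + dantrolene (6.23% higher and 0.9% lower). At an unadjusted p under 0.05, 2 genes were counted with dantrolene (ERO1A and DNAJB9) and 1 with the combination (ERO1A). Of all 13216 genes tested, 2146 and 1922 were under that level. DESeq2 also called no member in either comparison, and its unadjusted p was under 0.05 for 2 genes in each. The smallest adjusted p belonged to ERO1A in both comparisons, at 0.129 and 0.182.

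**Figure D1:**
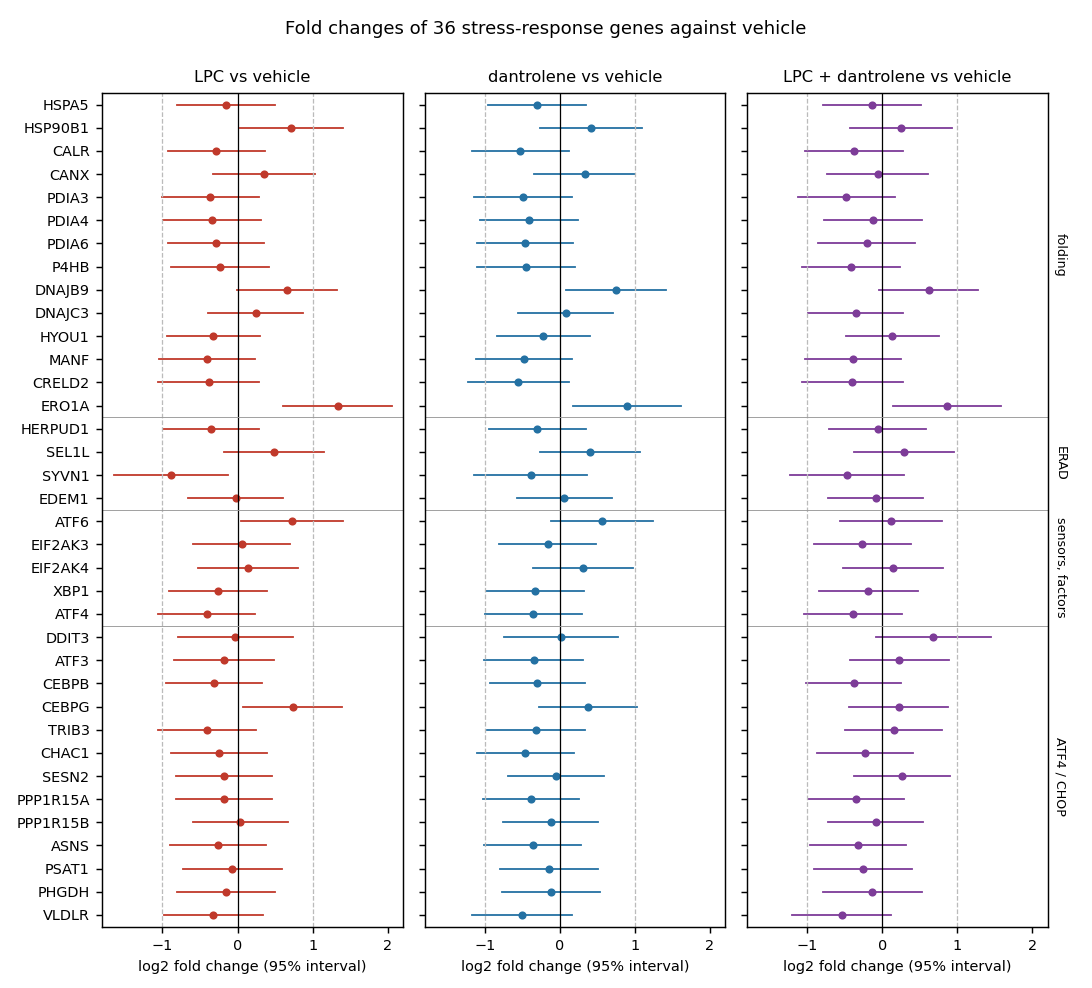
Log2 fold change against vehicle (x axis, points, with 95% intervals as bars) of the 36 genes, by role, for LPC, dantrolene and LPC + dantrolene with 3 libraries per group. Dashed lines mark a 2-fold change in either direction, and ERO1A with LPC, at 1.33, is the point farthest from 0.

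The median log2 fold change was -0.18 with LPC, -0.30 with dantrolene and -0.13 with the combination, beside -0.18, -0.11 and -0.08 over all genes tested. Below vehicle were 25, 25 and 24 of the 36 genes, a split that vanished on total counts alone, with 18, 19 and 17 below vehicle and medians of 0.00039, -0.06 and 0.03. Total counts also moved the median of all genes, to -0.0023, 0.13 and 0.12. With dantrolene and with LPC + dantrolene the members' median lay below that of all genes on either scaling. Leaving out 1 library moved these medians toward 0 by over 1.5 times, as far as -0.10 for LPC without LPC isolation 1, to -0.18 for dantrolene without dantrolene isolation 2 and to -0.08 for LPC + dantrolene without its isolation 2.

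A missed threshold does not show that a gene stayed level, so the 95% intervals of the fold changes were read as well. Their median half-width was 0.65 on the log2 scale. They are not adjusted for the number of genes, and the authors' batch adjustment may make them too narrow. They also rest on the main scaling, and on total counts alone the medians above were higher. A rise of 2-fold or more lay outside the interval for 29 of 36 genes with LPC, 29 with dantrolene and 33 with LPC + dantrolene. The intervals reached a 2-fold fall for 6, 13 and 9 genes, and they lay within 2-fold in both directions for 23, 16 and 24 genes. With LPC the 7 genes whose interval reached a 2-fold rise were ERO1A, HSP90B1, DNAJB9 and CANX among the folding genes, SEL1L of ER-associated degradation, ATF6, and CEBPG.

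**Figure D2:**
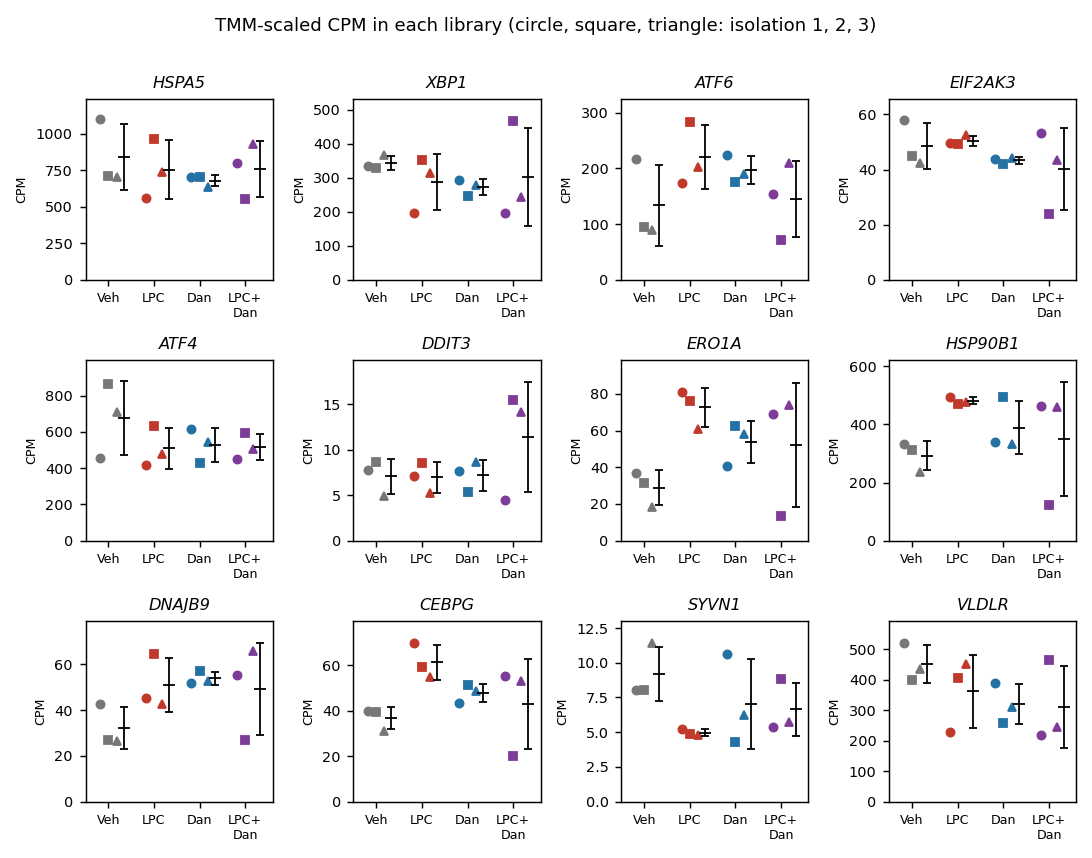
CPM scaled by the trimmed mean of M values (TMM) in each of the 12 libraries (y axis, from 0) for 12 genes, with the mean and SD (n = 3) of each group as a bar beside the points. ERO1A is higher in all 3 LPC libraries than in any vehicle library, and the LPC + dantrolene library of isolation 2 (purple square) falls far below its group for ERO1A, HSP90B1 and CEBPG.

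The chaperones and folding enzymes were the largest group, with 14 genes. ERO1A (ENSSSCG00000005037, chromosome 1 from 182268651 to 182318147 in Sscrofa11.1) was measured at 36.8, 31.4 and 18.4 CPM in the vehicle libraries of isolations 1, 2 and 3. With LPC it was at 81.0, 76.2 and 60.6 CPM, and with dantrolene at 40.6, 62.2 and 58.2 CPM. With LPC + dantrolene it was at 69.1, 13.5 and 74.2 CPM. All 3 LPC and all 3 dantrolene libraries lay above all 3 vehicle libraries, while the combination had 2 libraries above vehicle and 1 below every other library of the series. The log2 fold change was 0.90 (95% interval 0.18 to 1.61) with dantrolene and 0.86 (0.14 to 1.57) with LPC + dantrolene.

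HSPA5 encodes BiP, the chief chaperone of the ER lumen and the standard readout of ER stress. Its levels were 1099, 714 and 703 CPM with vehicle, 559, 966 and 738 CPM with LPC, 701, 701 and 635 CPM with dantrolene, and 798, 554 and 933 CPM with LPC + dantrolene. The LPC and combination libraries overlapped those of vehicle, and the 3 dantrolene libraries lay just below the lowest vehicle library. The log2 fold changes were -0.15, -0.30 and -0.14, and the upper ends of the 95% intervals were 0.50, 0.35 and 0.51, below a 2-fold rise in all 3 treatments.

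HSP90B1, the ER form of HSP90, was at 332, 310 and 235 CPM with vehicle and at 495, 472 and 476 CPM with LPC. The LPC libraries did not overlap vehicle, at a log2 fold change of 0.72 (95% interval 0.03 to 1.40, edgeR adjusted p = 0.272). With dantrolene it was at 340, 493 and 333 CPM, and with the combination at 462, 123 and 460 CPM, the low value again in isolation 2. DNAJB9, an ER co-chaperone, was at 42.9, 27.0 and 26.7 CPM with vehicle and at 52.0, 57.2 and 52.8 CPM with dantrolene. These groups did not overlap, and the log2 fold change was 0.75 (0.08 to 1.41, edgeR adjusted p = 0.201).

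None of the other folding genes passed the test, and they lay on both sides of vehicle. The protein disulfide isomerases PDIA3, PDIA4, PDIA6 and P4HB had log2 fold changes of -0.36, -0.34, -0.28 and -0.23 with LPC, and of -0.49, -0.41, -0.46 and -0.45 with dantrolene. The calcium-binding chaperone CALR was at -0.28 and -0.53, and its membrane relative CANX at 0.35 and 0.33. DNAJC3, an ER co-chaperone that inhibits PERK, was at 0.24 and 0.08. MANF and CRELD2, secreted or luminal ER stress proteins, were at -0.40 and -0.39 with LPC. With dantrolene they were at -0.48 and -0.56, and CRELD2 was the lowest of the 36 genes. HYOU1, a chaperone of the HSP110 type, had the largest share of its variance between groups, 54.7%, with 206, 152 and 181 CPM in vehicle, 170, 109 and 153 CPM with LPC, 161, 150 and 152 CPM with dantrolene, and 210, 186 and 197 CPM with LPC + dantrolene. All 3 combination libraries lay above all 3 LPC and all 3 dantrolene libraries, at 0.46 (95% interval -0.17 to 1.08) over LPC.

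Of the 4 genes of ER-associated degradation, none passed in any comparison. SYVN1, the ubiquitin ligase HRD1, was at 8.06, 8.06 and 11.4 CPM with vehicle and at 5.23, 4.89 and 4.78 CPM with LPC. The groups did not overlap, and the log2 fold change was -0.89 (95% interval -1.65 to -0.12, edgeR adjusted p = 0.186). With dantrolene SYVN1 was at 10.6, 4.27 and 6.22 CPM, a range that spans the vehicle level. SEL1L, the partner of HRD1, was at 0.49 with LPC, opposite in sign to SYVN1. HERPUD1, a membrane component of the same complex, was at 176, 172 and 170 CPM with vehicle and at 133, 133 and 139 CPM with LPC, a tight pair of groups that differed by -0.35 (edgeR adjusted p = 0.646). EDEM1, a mannosidase-like protein that marks glycoproteins for disposal, was at -0.03.

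Among the sensors, ATF6 was at 218, 94.1 and 88.8 CPM with vehicle, 174, 284 and 203 CPM with LPC, 224, 176 and 189 CPM with dantrolene, and 154, 72.3 and 209 CPM with LPC + dantrolene. The first vehicle library lay within the range of the treated cells, and the other vehicle libraries lay below every LPC and dantrolene library. The log2 fold change with LPC was 0.72 (95% interval 0.04 to 1.40, edgeR adjusted p = 0.265). Without the vehicle library of isolation 1 it was 1.27 and passed the test (edgeR adjusted p = 0.0363), with 7.34% of all genes called. This library was the highest of vehicle, so that leaving it out enlarges the difference. No other fit with 1 library left out called ATF6. EIF2AK3 was at 57.9, 44.9 and 42.4 CPM with vehicle, 49.5, 49.2 and 52.4 CPM with LPC, 43.7, 42.0 and 44.3 CPM with dantrolene, and 53.2, 24.0 and 43.3 CPM with the combination. Its groups overlapped vehicle in all 3 treatments, and the fold change with LPC was 0.06. EIF2AK4 was at 0.14 with LPC.

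XBP1, the target of IRE1, was at 335, 330 and 367 CPM with vehicle, 195, 351 and 314 CPM with LPC, 294, 247 and 277 CPM with dantrolene, and 196, 467 and 244 CPM with LPC + dantrolene. The dantrolene libraries lay below vehicle without overlap, at -0.33 (95% interval -0.99 to 0.32). ATF4, the shared transcription factor of the integrated stress response, was at 456, 862 and 710 CPM with vehicle, 415, 633 and 478 CPM with LPC, 616, 429 and 543 CPM with dantrolene, and 451, 594 and 505 CPM with LPC + dantrolene. All treated groups overlapped vehicle, and the fold changes were -0.41, -0.35 and -0.39. ERN1 itself, matched by its identifier ENSSSCG00000039909, was at 53.2, 36.2 and 33.2 CPM with vehicle, 26.5, 35.2 and 31.6 CPM with LPC, 49.8, 23.8 and 31.8 CPM with dantrolene, and 31.6, 63.1 and 63.4 CPM with LPC + dantrolene. In the combination 2 libraries lay above every other library of the series and the first did not. The log2 fold change over LPC was 0.76 (edgeR adjusted p = 0.606). DNAJB11, a co-chaperone of BiP found in the same way (ENSSSCG00000011798), was at 0.16, -0.13 and -0.06 against vehicle.

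Of the 13 genes of the ATF4 and CHOP branch, none passed against vehicle. DDIT3 encodes CHOP, the factor linked to cell death under lasting ER stress. It was low in every group, at 7.73, 8.64 and 4.94 CPM with vehicle, 7.07, 8.58 and 5.25 CPM with LPC, 7.66, 5.33 and 8.62 CPM with dantrolene, and 4.47, 15.5 and 14.2 CPM with LPC + dantrolene. LPC and dantrolene overlapped vehicle closely, at -0.03 and 0.02. The combination held both the highest and the lowest DDIT3 values of the series, and its fold change was 0.68 (95% interval -0.08 to 1.44, edgeR adjusted p = 0.46).

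CEBPG, a partner of ATF4 on its target genes, was the member of this branch farthest above vehicle with LPC. It was at 39.8, 39.7 and 31.1 CPM with vehicle, 69.9, 59.5 and 54.8 CPM with LPC, 43.5, 51.2 and 48.6 CPM with dantrolene, and 55.4, 20.1 and 53.3 CPM with LPC + dantrolene. LPC and dantrolene libraries lay above vehicle without overlap. The LPC libraries also lay above the dantrolene libraries. The log2 fold change with LPC was 0.74 (95% interval 0.08 to 1.40, edgeR adjusted p = 0.221).

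Among the amino acid genes that ATF4 is known to induce, none of the members passed with LPC. ASNS, asparagine synthetase, was at -0.26 with LPC, and the serine synthesis genes PSAT1 and PHGDH were at -0.07 and -0.15. CHAC1, a glutathione-degrading enzyme, was at -0.25, and TRIB3, a pseudokinase that restrains ATF4, at -0.41. The phosphatase subunits PPP1R15A and PPP1R15B, which reverse eIF2α phosphorylation, were at -0.18 and 0.04. ATF3, CEBPB and SESN2 were at -0.18, -0.31 and -0.18. VLDLR, a lipoprotein receptor, was at 521, 399 and 435 CPM with vehicle, 227, 406 and 452 CPM with LPC, 388, 259 and 310 CPM with dantrolene, and 219, 465 and 246 CPM with LPC + dantrolene. Only the dantrolene libraries lay wholly below vehicle, at -0.50 (95% interval -1.16 to 0.16).

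Counted over all 36 genes, 3 had every LPC library above every vehicle library (CEBPG, ERO1A and HSP90B1) and 3 had every LPC library below (HERPUD1, PDIA4 and SYVN1). These are 8.33% each, against 16.6% above and 10.6% below among all genes tested. With dantrolene 4 genes lay above, where the background was 16.1%, and 8 lay below, 22.2% against 11%. The 8 were HSPA5, PDIA3, PDIA4, CRELD2, HERPUD1, XBP1, CHAC1 and VLDLR, which span all 4 roles. With LPC + dantrolene 0 genes lay above and 0 below, against 4.71% and 5.74%. These counts rest on TMM-scaled CPM and were not repeated on total counts alone. The TMM factors were 0.879 to 0.918 in the vehicle libraries and 1.01 to 1.09 in the dantrolene libraries. How far the split with dantrolene depends on this scaling was not tested.

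The LPC + dantrolene library of isolation 2 bears on these counts. It held the lowest value of the 12 libraries for 13 of the 36 genes (24.4% of all genes tested) and the highest for 7 (20.7%). Among the lowest were HSPA5, HSP90B1, CANX, ERO1A, ATF6, EIF2AK3 and CEBPG, and among the highest XBP1, DDIT3, TRIB3 and PHGDH. Without this library 3 genes rose with LPC (ERO1A at 1.39, edgeR adjusted p = 5.18e-05, CEBPG at 0.80, adjusted p = 0.0215, and HSP90B1 at 0.78, adjusted p = 0.0316), with 12.5% of all genes called. In the same fit dantrolene raised ERO1A (0.95, adjusted p = 0.00758) and DNAJB9 (0.80, adjusted p = 0.0266), with 13.2% of all genes called. With 2 libraries left, LPC + dantrolene raised ERO1A (1.36, edgeR adjusted p = 0.000254) and DNAJB9 (0.96, adjusted p = 0.0115) and lowered VLDLR (-0.90, adjusted p = 0.0318), with 15.5% called. What sets this library apart was not tested. It was singled out after its values were seen. Leaving out a library because it stands apart can make the remaining spread, and so these p-values, too small.

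**Figure D3:**
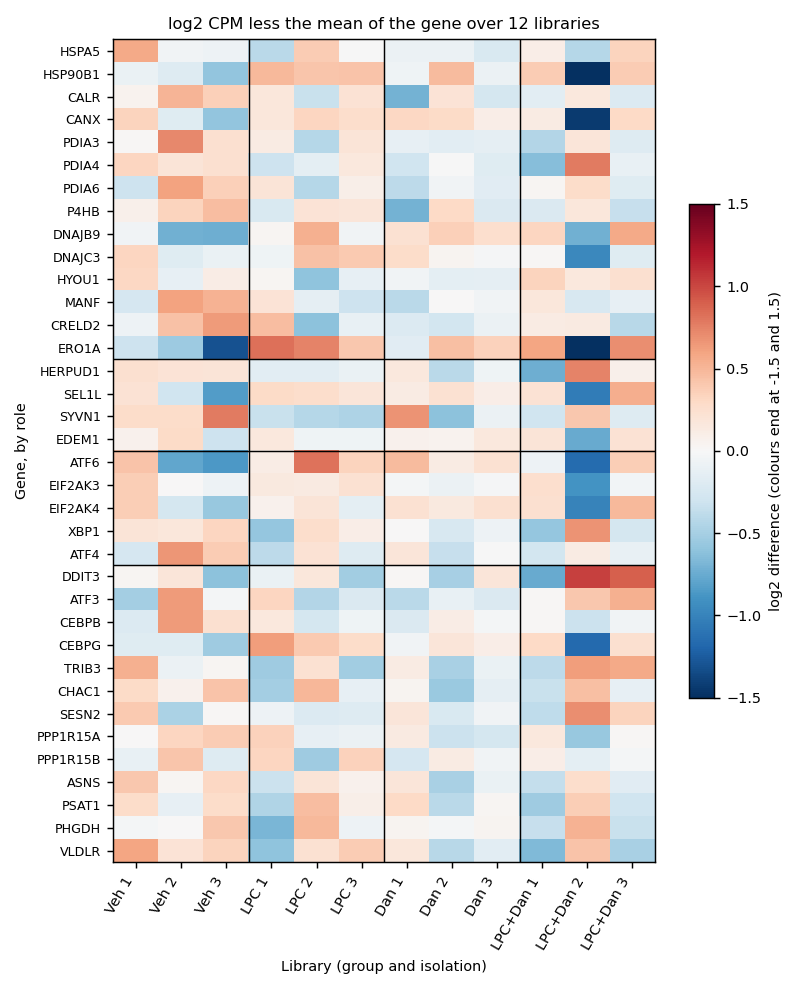
Log2 CPM of each of the 36 genes (rows, by role) in each library (columns, by group and isolation) less the mean of the gene over 12 libraries, with colours ending at -1.5 and 1.5. The column of LPC + dantrolene isolation 2 holds the lowest value for 13 genes and the highest for 7, and the folding genes HSP90B1, CANX and ERO1A are darkest there.

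The ERO1A call with LPC rested on few libraries. Its log2 fold change stayed between 1.14 and 1.55 when any 1 of the 12 libraries was left out. The call was lost without vehicle isolation 2 (edgeR adjusted p = 0.0627) or 3 (0.0773), and without LPC isolation 1 (0.0863) or 2 (0.11).

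LPC + dantrolene was compared to LPC alone to ask what dantrolene changes in LPC-treated cells. None of the 36 genes passed edgeR's test, and the background was 0.507%. Of the 36, 0 had an unadjusted p under 0.05, beside 874 of all 13216 genes tested. DESeq2 called none, with 1 gene at an unadjusted p under 0.05. The smallest adjusted p was 0.798, for DNAJC3 at -0.60. ERO1A was at -0.47 (95% interval -1.19 to 0.24). Without LPC + dantrolene isolation 2, which held the lowest ERO1A level of the series, it was at -0.03 (edgeR adjusted p = 0.998). HYOU1 and SYVN1 lay above LPC without overlap and HSP90B1 below, which is 5.56% and 2.78% of the genes, against 4.86% and 4.93%.

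LPC + dantrolene against dantrolene alone and dantrolene against LPC gave no call either, with 0 genes at an unadjusted p under 0.05 by edgeR or DESeq2 and backgrounds of 0.0227% and 0.325%. By edgeR, 169 and 582 of all 13216 genes tested had an unadjusted p under 0.05. ATF3 and HYOU1 lay above dantrolene in all 3 combination libraries, 5.56% of the genes against 2.54%, and 0 lay below, against 2.17%. CEBPG and EIF2AK3 lay below LPC in all 3 dantrolene libraries, 5.56% against 4.68%, and 0 lay above, against 5.18%. ATF3, a stress-induced transcription factor, was at 22.2, 27.3 and 25.3 CPM with dantrolene and at 29.9, 39.1 and 42.6 CPM with the combination.

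The interaction term, the effect of LPC in dantrolene-treated cells less its effect without dantrolene, also passed for none of the 36 genes, with 4.65% of all genes called (0.159% higher and 4.49% lower). At an unadjusted p under 0.05 were 2 genes by edgeR (ERO1A and ATF6) and 3 by DESeq2. By edgeR, 1919 of all 13216 genes tested were under that level. The term was -1.37 for ERO1A (edgeR adjusted p = 0.116) and -1.16 for ATF6 (adjusted p = 0.191), and it was 0.88 for TRIB3 (adjusted p = 0.381). Its intervals were wide, with a median half-width of 0.92, and 2 of 36 lay within 2-fold in both directions. With 1 library left out, the smallest adjusted p among the 36 genes ran from 0.0238 to 0.338. The low end was the ERO1A term without LPC + dantrolene isolation 3, at -1.71, the only fit in which it passed. Without LPC + dantrolene isolation 2 the ERO1A term was -0.98 (edgeR adjusted p = 0.204).

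Most of the variance lay within groups. Differences between groups held a median of 27.5% of the variance of log2 CPM over the 36 genes and 28.3% over all genes tested. With 4 groups of 3 libraries, this share is well above 0 even where the groups do not differ. It was therefore not read as an effect of treatment, also for the 54.7% of HYOU1, the highest of the 36. The within-group SD had a median of 0.37 for the members and 0.42 for all genes. Over the 12 libraries the ratio of the highest to the lowest value ran from 1.85 for ASNS to 5.98 for ERO1A.

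The genes above and below vehicle differed in the length of their loci. The span from gene start to gene end, taken from RefSeq in Sscrofa11.1, ran from 1.041 kb for CEBPB to 214.878 kb for ATF6. The 11 genes with a positive fold change with LPC had a median span of 49.5 kb, and the 25 with a negative one had a median of 11.3 kb. This split by sign depends on the scaling, with 18 positive and 18 negative on total counts alone. Of the 12 shortest genes 1 was positive with LPC (DNAJB9), and of the 12 longest 7 were. The same counts were 2 and 7 with dantrolene and 2 and 5 with LPC + dantrolene. Across genes, which are not independent replicates and share libraries, Spearman's rho between span and fold change was 0.48 with LPC, 0.45 with dantrolene and 0.30 with LPC + dantrolene. Over 10313 genes with a span the same values were 0.28, 0.27 and 0.24, so that the relation was present in the series as a whole.

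**Figure D4:**
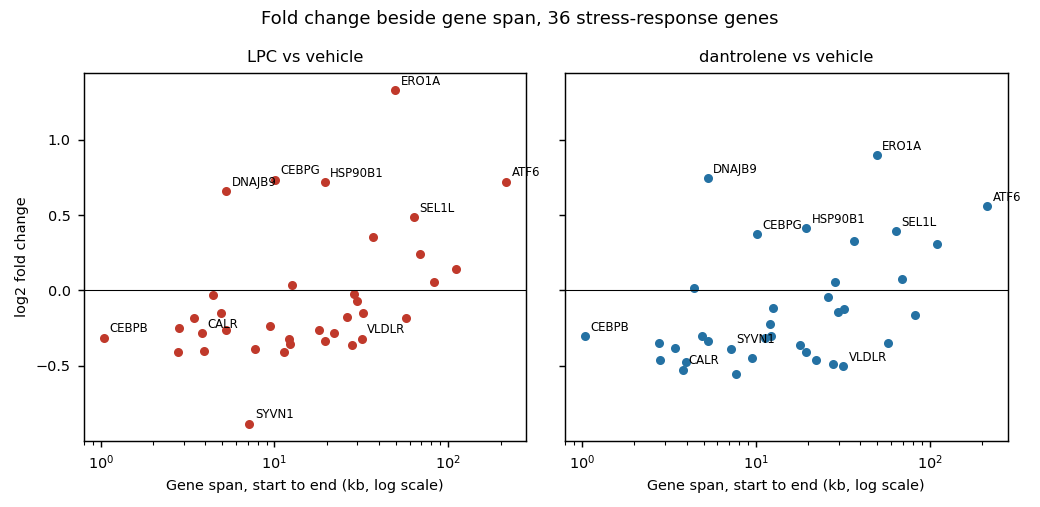
Log2 fold change against vehicle (y axis) beside the span of the gene in kb (x axis, log scale) for the 36 genes with LPC and with dantrolene. Positive values are few among the short genes at the left, with DNAJB9 as the main exception, and SYVN1 with LPC is the lowest point at -0.89.

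A further 85 genes of the same pathways were examined as a list, of which 80 had a row and 79 were tested. With LPC 11 rose and 0 fell, 13.9% against 8.69% of all genes. With dantrolene 9 rose and 1 fell, 12.7% against 8.8%, and with LPC + dantrolene 8 rose and 0 fell, 10.1% against 7.14%. With 1 library left out, the number that rose ran from 8 to 15 with LPC, 4 to 12 with dantrolene and 4 to 14 with LPC + dantrolene. The share called among all genes moved with them, from 5.04% to 12.5%, 3.16% to 13.2% and 3.73% to 15.5%. The highest numbers came without LPC + dantrolene isolation 2, and the lowest with dantrolene without dantrolene isolation 2 and with LPC + dantrolene without its isolation 1. With the isolation as a replicate block, 5 rose with LPC + dantrolene, with 4.68% of all genes called. The median of the list was nevertheless below vehicle, at -0.19, -0.22 and -0.11, so that the calls came from a few genes. With LPC 7 of the 11 belonged to ER folding and translocation, namely DNAJC10, ERO1B, FKBP14, HSPA13, LMAN1, SEC62 and SEC63. These were 31.8% of the 22 genes tested in that role, whose median with LPC was -0.18. The list itself was chosen with earlier results of these data known. Of 26 genes of amino acid supply and tRNA charging, SLC7A11 alone passed in each treatment.

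SEC62, a subunit of the ER protein import channel, was at 25.7, 20.7 and 22.3 CPM with vehicle, 91.1, 139 and 83.1 CPM with LPC, 52.3, 162 and 83.9 CPM with dantrolene, and 98.6, 41.9 and 113 CPM with LPC + dantrolene. Every treated library lay above every vehicle library. The log2 fold changes were 2.19, 2.12 and 1.88 (edgeR adjusted p = 6.43e-06, 1.68e-05 and 9.3e-05). HSPA13, an ER-associated HSP70 protein, was at 9.30, 9.58 and 7.90 CPM with vehicle, 40.9, 44.9 and 34.2 CPM with LPC, 29.1, 62.8 and 34.8 CPM with dantrolene, and 37.0, 13.7 and 46.1 CPM with LPC + dantrolene. It also rose in all 3 treatments, by 2.16, 2.24 and 1.85 on the log2 scale (edgeR adjusted p = 9.36e-06, 9.88e-06 and 0.000142).

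SLC7A11, the cystine importer that ATF4 and NRF2 both regulate, was at 13.5, 11.7 and 7.21 CPM with vehicle, 59.9, 52.2 and 40.2 CPM with LPC, 25.7, 81.1 and 65.9 CPM with dantrolene, and 74.4, 19.1 and 76.2 CPM with LPC + dantrolene. All treated libraries exceeded vehicle, at 2.23, 2.41 and 2.38 (edgeR adjusted p = 1.13e-05, 6.34e-06 and 9.56e-06). EIF2AK2, the eIF2α kinase PKR, was singled out after its values were seen, since the other eIF2α kinases did not pass the test. It was at 11.4, 13.9 and 9.41 CPM with vehicle, 62.0, 32.5 and 55.3 CPM with LPC, 22.2, 65.1 and 33.0 CPM with dantrolene, and 64.2, 10.3 and 38.6 CPM with LPC + dantrolene. It rose by 2.11, 1.79 and 1.70 (edgeR adjusted p = 4.09e-05, 0.000567 and 0.00116), with the combination library of isolation 2 at the vehicle level. The call with LPC + dantrolene was lost without LPC + dantrolene isolation 1 (1.08, edgeR adjusted p = 0.154) and with DESeq2 (adjusted p = 0.0703), and the call with dantrolene without dantrolene isolation 2 (1.25, adjusted p = 0.0889).

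**Figure D5:**
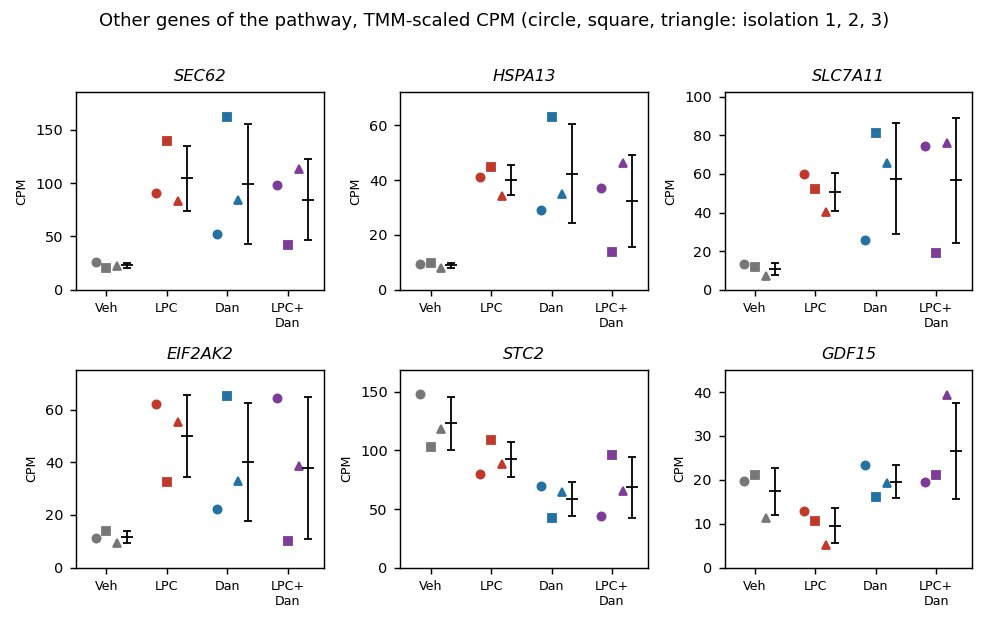
TMM-scaled CPM in each of the 12 libraries (y axis, from 0) for 6 other genes of the pathways, with the mean and SD (n = 3) of each group as a bar. SEC62, HSPA13 and SLC7A11 are above vehicle in all 9 treated libraries, and EIF2AK2 in 8 of the 9.

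STC2 and GDF15, secreted proteins whose genes respond to ATF4, were the other calls of the list that the naming rule picked. STC2 was at 148, 103 and 118 CPM with vehicle and at 69.6, 42.4 and 64.6 CPM with dantrolene, and it fell by 1.06 on the log2 scale (edgeR adjusted p = 0.0237). With the isolation as a replicate block the adjusted p was 0.0582. The STC2 call was also lost on total counts alone, without any 1 of the 3 vehicle libraries, and without dantrolene isolation 2 or 3. GDF15 was at 12.9, 10.5 and 5.19 CPM with LPC and at 19.5, 21.1 and 39.3 CPM with LPC + dantrolene, 1.48 higher (edgeR adjusted p = 0.0243), with vehicle between at 19.8, 21.1 and 11.3 CPM. With the replicate block its adjusted p was 0.123, and the call was lost in 9 of 18 alternatives, among them each fit without an LPC library.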

How the data were processed

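Poly(A) RNA-seq libraries of paVICs were sequenced by the study, and the authors deposited 1 table of counts per gene for all 12 libraries. The submitters' processing notes name HISAT2 2.0.5, R 4.1.1, DESeq2 1.32.0 and the build Sscrofa11.1, while the methods name STAR for the same step, so the aligner is not settled. The counts had been adjusted for batch by the authors with ComBat, which uses degrees of freedom that later tests do not count, so p-values may be too small. Tables of the authors' own comparisons (fold changes, p-values) were not used.

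Counts were tested with edgeR 4.0.16 (R 4.3.3) by glmQLFit and glmQLFTest over 12 libraries with group as the only term, TMM factors, filterByExpr (minimum count 10, 13216 of 31908 genes kept) and Benjamini-Hochberg adjustment over all genes tested. A gene was called at an adjusted p under 0.05. Fold changes are log2, and intervals are 95% from the SE and the total degrees of freedom of the fit. CPM are TMM-scaled. TMM factors ran from 0.863 to 1.15. Alternatives were other size factors, total counts, no filter, DESeq2 1.42.0, fits with the 2 groups alone, the isolation as a replicate block, and each library left out. The scripts were tested on simulated data.

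Replicate numbers pair the libraries because the labels give each number as 1 isolation. After ComBat, deviations from the group means of libraries of the same isolation had a median correlation of -0.152 (-0.536 to 0.207 over 18 pairs), against 0.108 for other pairs, an outcome that the adjustment itself fixes. The members, the list of other genes and all tests were chosen with earlier results of these data known. Per-library values are given for called members and for HSPA5, XBP1, ERN1, ATF6, EIF2AK3, ATF4 and DDIT3, and for the list the genes with the 2 smallest adjusted p per direction and comparison. The members HSP90B1, DNAJB9, HYOU1, SYVN1, HERPUD1, CEBPG, ATF3 and VLDLR, and EIF2AK2, were added after their values were seen. RefSeq spans matched 36 of 36 members by symbol.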

Additional observations from a re-analysis of the deposited data

Results flagged for a closer look

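Among the 79 other genes of the pathways tested, the effect of LPC differed with and without dantrolene for 7 (8.86%, beside 4.65% of all genes), namely SEC62, HSPA13, SLC7A11, EIF2AK2, DNAJC10, KLHL24 and LMAN1. With 1 library left out the number ran from 0, without LPC isolation 2, to 10, without LPC + dantrolene isolation 3. It was 1 without dantrolene isolation 2, and 4 without vehicle isolation 1 or LPC isolation 1. The values below are for the 4 genes described above. By the interaction term of edgeR's quasi-likelihood test, the effect of LPC with dantrolene less that without it was -2.42 on the log2 scale for SEC62 (adjusted p = 0.00119) and -2.55 for HSPA13 (adjusted p = 0.000839). The same term was -2.25 for SLC7A11 (adjusted p = 0.00369) and -2.20 for EIF2AK2 (adjusted p = 0.00605). In all 4 genes LPC alone and dantrolene alone each raised the level, and the combination did not differ from either agent alone past the threshold. The 3 comparisons with vehicle and the interaction all use the same 3 vehicle libraries. Where the 3 treated groups lie at similar levels above vehicle, the interaction is negative by its definition. The rises over vehicle and the negative interaction are therefore not separate observations. Of all genes tested, 4.49% had a negative interaction past the threshold. Without LPC isolation 2 the adjusted p was 0.0679 for HSPA13, 0.0837 for SEC62, 0.0898 for SLC7A11 and 0.085 for EIF2AK2. Without dantrolene isolation 2 it was 0.0727 for SEC62, 0.0902 for SLC7A11 and 0.162 for EIF2AK2, and 0.25% of all genes were called. By DESeq2 it was 0.0912 for SLC7A11 and 0.152 for EIF2AK2. The EIF2AK2 term was also not called on total counts alone (0.0694), without vehicle isolation 1 (0.0546) or without LPC isolation 1 (0.079), which makes 6 of its 17 alternatives. None of the 36 listed members met a criterion of this kind.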

How the results depend on the processing

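The number of the 36 genes called with LPC against vehicle was 1, and it was 4 with the 2 groups alone in the fit (ATF6, CEBPG, ERO1A and HSP90B1, with 12.9% of all genes called) and 0 to 3 when 1 library was left out. With dantrolene against vehicle it was 0, 1 with the 2 groups alone (ERO1A, adjusted p = 0.0309, with 12.2% of all genes called) and 0 to 2 with 1 library left out. With LPC + dantrolene against vehicle the range was 0 to 3 and for the interaction 0 to 1, and in the other 3 comparisons the count was 0 in each alternative. The highest counts against vehicle came without LPC + dantrolene isolation 2, apart from the fit of LPC and vehicle alone. With the replicate block the counts were 1 for LPC and 0 elsewhere, and ERO1A with LPC was 1.34 (adjusted p = 0.0344). Beyond STC2 and GDF15, the block changed no call of a member or other pathway gene named with its values. The cell type markers, among them LUM, POSTN and CDH5, were not examined in the alternatives. No fit with 2 groups alone can give the interaction. For 19 single-gene values and 338 alternatives, 303 stayed called, 35 kept the direction but were not called, and 0 reversed. The cause of these differences was not tested. With 3 libraries a group, the intervals ran about 0.65 on either side. At an adjusted p under 0.05, changes under 2-fold in single members were mostly beyond what these data resolve. A few unadjusted intervals of such changes excluded 0, as for HSP90B1 and SYVN1 with LPC.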
